A study of Mus musculus with 64 samples.

Results

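Barcodes that carried both CD64 and CD90.2 were examined in 9 surface protein libraries, made from colonic immune cells of SCID mice with T cell transfer colitis. A barcode marks 1 droplet, which normally holds 1 cell. The double-positive barcodes were selected on their antibody counts: after filtering they had CD64 and CD90.2 above a threshold, and CD3, Ly-6G and Ly-6C at or below one. They numbered 3563 of 130442 kept barcodes, or 2.73%. CD64 without CD90.2 was found on 9755 barcodes under the same gates and CD90.2 without CD64 on 26639. Each gate was set on a centred log ratio. It is ln(count + 1) of an antibody less the barcode's mean of ln(count + 1) over all 11 antibodies. The thresholds were 0.105 for CD64, 2.035 for CD90.2, -0.155 for CD3, 0.982 for Ly-6G and 3.162 for Ly-6C.

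All 9 groups were SCID mice labelled as given CD45RBhi T cells, which are mostly naive and cause colitis in hosts without lymphocytes of their own. Whether the week 0 tissue was taken before or after the transfer is not given in the labels. SCID hosts lack mature T and B cells and keep innate lymphoid and myeloid cells. There was 1 untreated library for each of weeks 0 to 7 after transfer, and 1 library at week 7 from mice given an antibody against IL-12p40, the subunit shared by the cytokines IL-12 and IL-23, from day 10. Colons of 3 animals were pooled for each library, so every group was 1 pool and the spread between animals is not measured. Cells negative for EpCAM and positive for CD45 were sorted from the lamina propria, the connective tissue under the gut epithelium, after staining with antibodies that carry sequence tags. The libraries held 11534 to 21229 barcodes with median totals of 576.5 to 1566 antibody counts, and in 3 of them the barcodes outnumbered the 16000 cells loaded. Library pairs shared 29 to 108 kept barcode sequences, and no double-positive barcode was double-positive in another library.

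CD64 is the high-affinity Fc receptor for IgG, carried by macrophages and by monocytes that mature into them. CD90.2 is a form of Thy-1, a surface protein of T cells and of innate lymphoid cells. In the gut, these proteins are commonly used to separate myeloid from lymphoid cells. CD11b and CD11c are integrin subunits of myeloid cells, CD127 is the IL-7 receptor alpha chain of lymphoid cells, and KLRG1 is an inhibitory receptor of natural killer, T and some innate lymphoid cells. CD4 marks helper T cells and also occurs on some macrophages and innate lymphoid cells, and CD103 is an integrin subunit of dendritic and intraepithelial cells. CD3 belongs to the T cell receptor complex, Ly-6G marks neutrophils, and Ly-6C marks monocytes and some lymphocytes.

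At the thresholds of the rule, most double-positive barcodes came from the first weeks. It made up 10.5% of the week 0 library (1763 barcodes, exact Clopper-Pearson 95% interval 10.1% to 11.01%), 6.47% of the week 1 library (6.05% to 6.92%) and 2.32% of the week 2 library (2.12% to 2.53%). Weeks 0 and 1 together supplied 2579 of the 3563 barcodes, or 72.4%. From week 3 to week 6 the share lay between 0.514% and 0.820%, with 84 to 114 barcodes a library, and the intervals of these 4 weeks lie well below that of week 2. The untreated week 7 library held 2 double-positive barcodes, or 0.0168% (0.00203% to 0.0607%). The treated week 7 library held 113, or 0.909% (0.749% to 1.09%). These shares are what the gates measured, so they are a description without a test, and all intervals cover counting error only.

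The week 0 share was 6.36% with the CD64 threshold 0.5 higher and 17.3% with it 0.5 lower. Week 0 was highest, followed by weeks 1 and 2, in 10 of 12 other processing settings. With the CD64 threshold 0.5 lower, the treated library lay above week 2, at 4.25% against 3.98%. With CD64 and CD90.2 thresholds fitted in each library, the treated library had the highest share of all, 13.6%, above 9.14% at week 0 and 6.73% at week 1. In that setting the untreated week 7 share was 2.28%, and week 7 was lowest in the other 11 of the 12 settings.

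**Figure D1:**
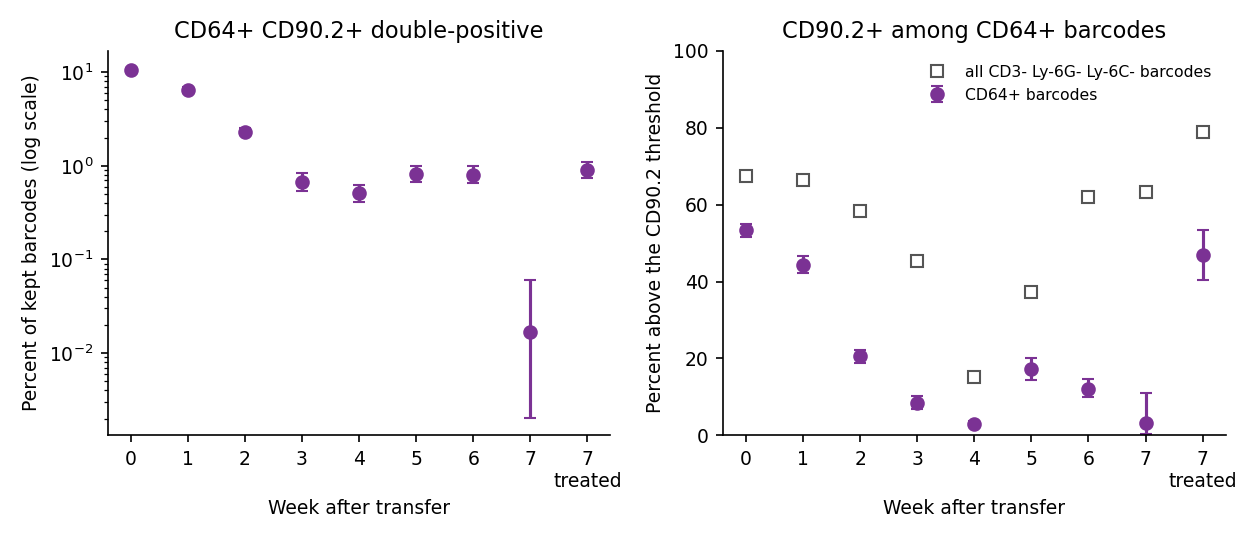
Left, double-positive barcodes as a percentage of kept barcodes (log scale) in each library, by week after transfer. Right, percentage of CD64+ barcodes (CD3-, Ly-6G- and Ly-6C-) above the CD90.2 threshold (filled circles), beside that of all CD3- Ly-6G- Ly-6C- barcodes (open squares). Bars are exact 95% intervals for counting error. The left share goes from 10.5% at week 0 to 0.669% at week 3, and in the right panel every circle lies below its square.

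Among CD64+ barcodes, CD90.2 was on more than every second one at the start and on few by week 4. The percentage of CD64+ barcodes that were also CD90.2+ was 53.4%, 44.4% and 20.5% at weeks 0, 1 and 2. Weeks 3 to 6 had 8.37%, 2.99%, 17.1% and 12.2%. The untreated week 7 library had 3.17% and the treated one 46.9%. The same percentage over all CD3- Ly-6G- Ly-6C- barcodes was 67.3% at week 0, 15.2% at week 4 and 79.0% in the treated library. The CD90.2+ percentage was therefore lower among CD64+ barcodes than among all CD3- Ly-6G- Ly-6C- barcodes in each library. The lowest values of both percentages fell at week 4. Read from the other side, CD64 was on 16.3%, 11.6%, 13.5%, 5.75%, 11.8%, 10.7% and 4.06% of the CD90.2+ barcodes at weeks 0 to 6. It was on 0.499% in the untreated and 4.08% in the treated week 7 library. This percentage did not follow the decline of the double-positive share, since weeks 4 and 5 were close to week 1.

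The absolute counts of both markers follow in part from the gates, so they are a description. For week 0 double-positive barcodes the median count needed to pass was 491.5 for CD90.2 and 70.5 for CD64. Each single-positive class was chosen to be low in the other marker. The CD90.2 count of week 0 double-positive barcodes had a median of 1995, against 73 on CD64 single-positive and 884 on CD90.2 single-positive barcodes. Their CD64 count had a median of 143, against 111 on CD64 single-positive and 3 on CD90.2 single-positive barcodes. Over weeks 0 to 6 the median CD90.2 count of double-positive barcodes ranged from 503 to 1995 and the median CD64 count from 60 to 160. CD3+CD4+ barcodes, a class that should lack CD64, had median CD64 counts of 2 to 9 in weeks 1 to 7. The label fitted the treated library less well, where the median CD64 count was 15 on double-positive, 54 on CD64 single-positive and 4 on CD3+CD4+ barcodes. The median CD64 count needed to pass the gate there was 11.9, against 70.5 for the double-positive barcodes of week 0.

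In week 0 the CD90.2 counts of CD64+ barcodes formed separate low and high groups. Of 3304 such barcodes, 13.7% had 56 to 98 counts and 16.4% had 1778 to 3161 counts, the fullest bins of the low and the high group. Between them, the bin of 316 to 561 counts held 3.81%. At week 2 the high group was smaller and peaked at 316 to 561 counts, with 7.83% of 2375 barcodes. At week 4 the bin of 17 to 30 counts held 30.7% of 3074 barcodes and that of 316 to 561 counts held 2.44%. The high group was smaller at each later of these weeks. The lowest bin between both peaks was 177 to 315 counts at week 4, with 1.98%, and 99 to 176 counts at week 2, with 3.37%. Within 0.1 of the CD90.2 threshold lay 131 barcodes inside, with a median CD90.2 count of 465, and 155 outside, with a median of 321. Near the CD64 threshold lay 335 barcodes inside, with a median CD64 count of 22, and 380 outside, with a median of 13.

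**Figure D2:**
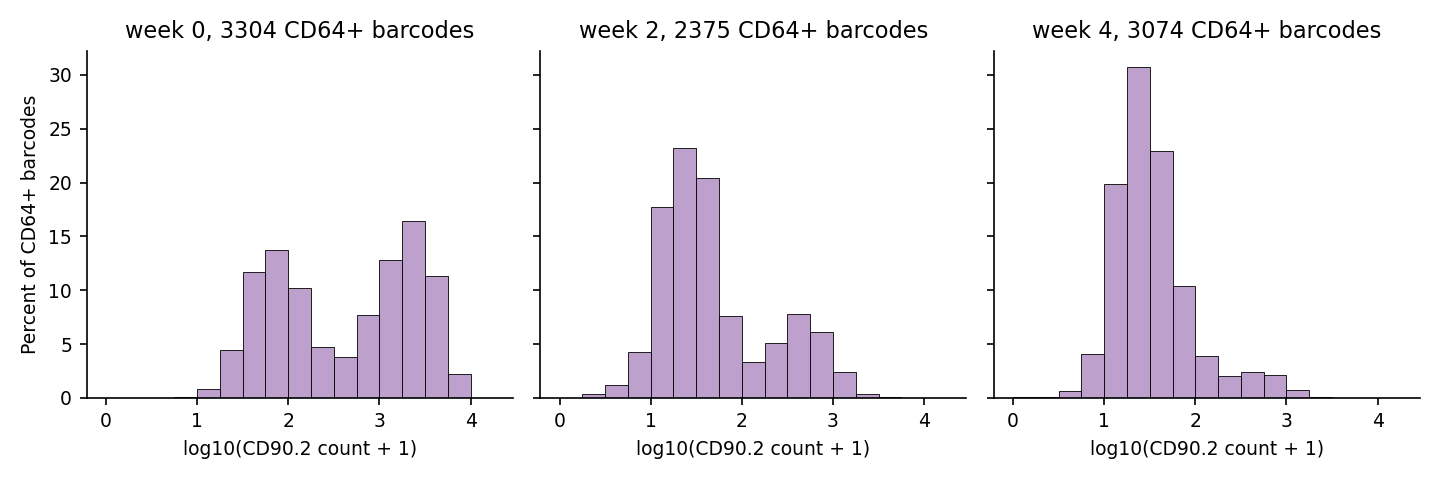
Distribution of CD90.2 counts, as log10 of the count plus 1, among CD64+ CD3- Ly-6G- Ly-6C- barcodes at weeks 0, 2 and 4; bar height is the percentage of those barcodes. The low group is present in each panel, and the high group shrinks from week 0, where its fullest bin holds 16.4%, to week 4.

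The number of antibody counts was higher on double-positive barcodes than on either single-positive class in each untreated library. The median total was 3258 at week 0 (quartiles in the plot of totals), against 1073 for CD64 single-positive and 1145 for CD90.2 single-positive barcodes. It was 1637.5 against 590 and 559 at week 1, and 1259 against 656 and 614 at week 2. From week 3 to week 6 the double-positive median lay between 1895.5 and 2702. Divided by the sum of both single-positive medians, the double-positive total was 1.47, 1.43, 0.991, 1.06, 1.14, 1.29 and 0.886 at weeks 0 to 6. The double-positive median was thus close to or above what 1 barcode of each class adds up to, and 1.07 times that sum in the treated library. The total includes CD90.2, which was chosen to be high. At week 0 the CD90.2 median was 1995, against 957 for the sum of both single-positive medians. The 6 antibodies that set no gate, added up, were 1.04 and 1.02 times their sum at weeks 0 and 1.

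**Figure D3:**
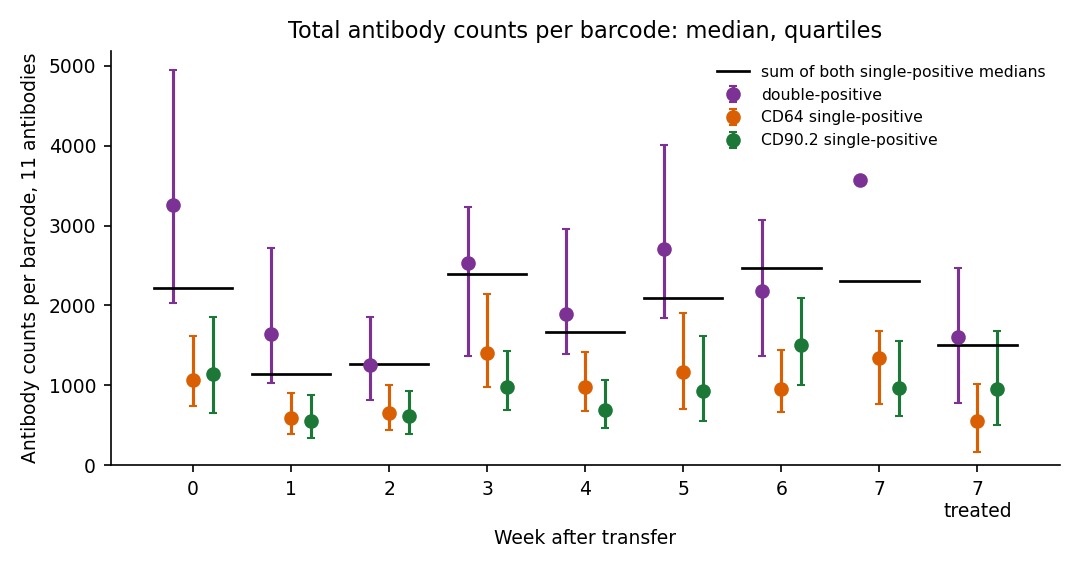
Total antibody counts per barcode (11 antibodies) in double-positive, CD64 single-positive and CD90.2 single-positive barcodes of each library. Points are medians and bars quartiles, and black lines mark the sum of both single-positive medians; untreated week 7 holds 2 double-positive barcodes. At weeks 0 and 1 the double-positive median lies above the line, and at week 6 it lies below it.

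The double-positive share was highest in the deepest decile by total at weeks 0, 1, 4, 5 and 6, and in decile 9 at weeks 2 and 3. At week 0, 92.6% of the double-positive barcodes lay above the library's median total and 48.0% lay in its deepest decile, against 3.96% of CD64 single-positive and 6.01% of CD90.2 single-positive barcodes. Double-positive barcodes made up 50.6% of the deepest decile at week 0 and 1.55% of the shallower 50%. Of the 170 barcodes left out there as the top 1% by total, 107 met the same gates, or 62.9% (exact 95% interval 55.2% to 70.2%). Week 1 had 25.1% in its deepest decile, and week 2 had at most 4.01% in any decile. The deepest decile held 38.8% of the double-positive barcodes of week 1, and 12.9%, 11.9%, 40.2%, 49.1% and 19.6% of those of weeks 2 to 6. In the treated library the share was flat, with 0.884% in the deepest decile and 0.885% in the shallower 50%. The part of depth in the double-positive shares of the libraries was not tested. After thinning each barcode to 200 counts, which left out 917 of 16735 barcodes at week 0, the week 0 share was 9.17% and the week 1 share 6.13%. Thinned shares were 0.0254% at untreated week 7, where 84 barcodes were left out, and 1.03% in the treated library, where 589 were.

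**Figure D4:**
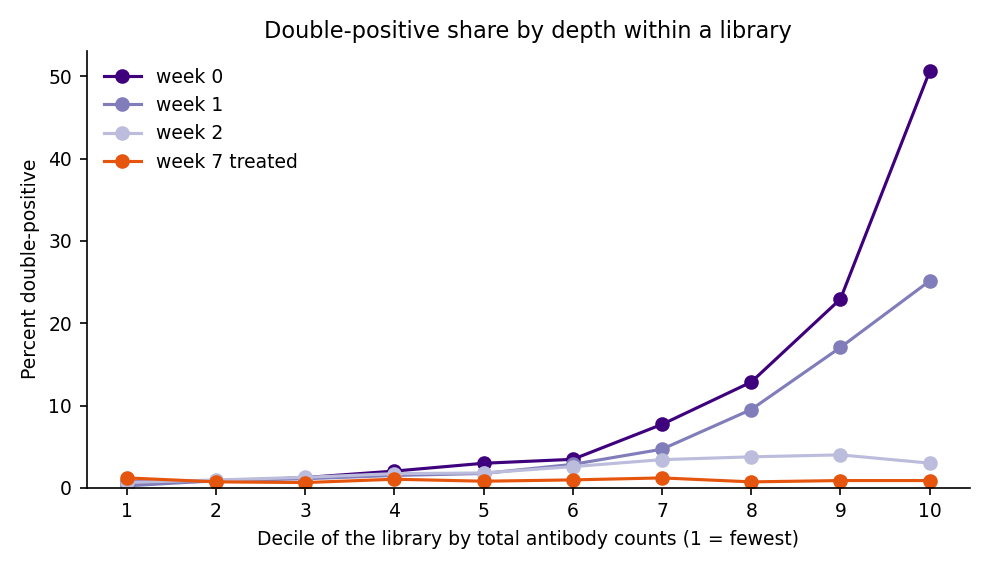
Percentage of double-positive barcodes in each decile of a library by total antibody counts, for weeks 0, 1 and 2 and the treated week 7 library. The week 0 line ends at 50.6% and the week 1 line at 25.1% in the deepest decile, while the treated line is at 0.884% there.

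CD64 and CD90.2 met on 1 barcode less often than the product of their shares gives, in each of the 9 libraries. The ratio of the observed to the product count was 0.793 at week 0, with 1763 barcodes against 2224. It equals the CD90.2+ percentage among CD64+ barcodes divided by that among all CD3- Ly-6G- Ly-6C- barcodes. The ratios therefore restate the earlier comparison of these percentages and are not a separate result. Weeks 1 to 6 had ratios of 0.668, 0.352, 0.185, 0.197, 0.461 and 0.197. The untreated week 7 library had 0.0503 and the treated one 0.594. The ratio was below 1 in all 90 values under other settings, the highest being 0.995 in the treated library with thresholds fitted in each library. Both gates move with the barcode's mean, so they are not independent of each other. At week 0 the median CD90.2 count needed was 264 on CD64 single-positive and 87.3 on CD90.2 single-positive barcodes. The part of this in the ratios was not tested. For comparison, proteins of unlike cells were paired. CD64 with CD3 had ratios of 0.0323 to 0.381, and at week 0 3 barcodes carried both where the product gives 21.4. Ly-6G with CD90.2 among CD3- barcodes had ratios of 0.723 and 0.594 at weeks 0 and 1, and of 0.394 to 0.538 in the other 7 libraries. At week 0, 60 of 125 Ly-6G+ barcodes, or 48.0% (exact 95% interval 39.0% to 57.1%), were CD90.2+, beside 53.4% of CD64+ barcodes. The share of CD90.2+ among Ly-6G+ barcodes, a class that should lack CD90.2, was 37.1%, 23.7% and 4.46% at weeks 1, 2 and 4. Over those 4 weeks the CD90.2+ share was highest at week 0 and lowest at week 4 on both neutrophil-gated and CD64+ barcodes. At weeks 3, 5 and 6 it was 14.6%, 12.2% and 22.3% on Ly-6G+ barcodes, beside 8.37%, 17.1% and 12.2% on CD64+ barcodes. Untreated week 7 had 20.3% beside 3.17%, and the treated library 30.2% beside 46.9%. The order of these libraries differed between both classes. CD11c+ barcodes without CD64 carried CD90.2 in 40.4% of 4761 cases at week 0, a pair added after values had been seen. At weeks 1 to 6 the percentage was 32.5, 61.4, 35.1, 20.4, 23.2 and 27.8. It was 44.0 in the untreated and 63.8 in the treated week 7 library. Unlike on CD64+ barcodes, it was thus higher at week 2 than at week 0. Barcodes of 1 cell with both proteins and barcodes of more than 1 cell cannot be told apart with antibody counts alone.

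The 6 antibodies that set no gate were compared with each single-positive class within the 8 libraries that had at least 20 double-positive barcodes. The measure was the log2 ratio of median counts plus 1, tested by a two-sided exact sign-flip permutation test over libraries with Benjamini-Hochberg adjustment over 14 tests. With 8 libraries the smallest p is 0.00781. The p-values measure only the spread among these pools. Against CD64 single-positive barcodes 3 of 7 measures (6 antibodies and their sum) passed, and against CD90.2 single-positive barcodes 6 of 7. The counts of these 6 antibodies enter the mean that each gate subtracts, so they are not fully independent of the gates. With gates centred on the 5 gated antibodies only, 9 of the 9 passed again. That setting was added after seeing the data and chose 4081 barcodes, which shared 3080 with the first set (86.4% of the first, 75.5% of the second).

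Against CD64 single-positive barcodes, the double-positive ones had more of a lymphoid protein and less of a myeloid one. CD127 was higher in 8 of 8 libraries, by 1.11 ± 0.44 on the log2 scale (SD, n = 8, exact permutation adjusted p = 0.0219). At week 0 the median CD127 count was 31 on double-positive and 12 on CD64 single-positive barcodes, and at week 3, the smallest difference, 16 and 13. CD4 was higher in 7 of 8, by 1.88 ± 1.45 (SD, n = 8, exact permutation adjusted p = 0.0273), and lower in the treated library. Its double-positive medians were 66, 15, 50, 70, 129.5, 230.5 and 202 at weeks 0 to 6, against 39, 7, 8, 21, 11, 23 and 24 on CD64 single-positive barcodes. CD11c was lower in 8 of 8, by -0.91 ± 0.54 (SD, n = 8, exact permutation adjusted p = 0.0219), with medians of 70 and 100 at week 0. After thinning to 200 counts the CD127 difference was 0.10 (exact permutation adjusted p = 0.808) and the CD4 difference 0.70 (exact permutation adjusted p = 0.267), and neither passed. Thinning fixes the total, and gated CD90.2 fills unlike parts of it. Its unthinned week 0 medians were 1995 on double-positive and 73 on CD64 single-positive barcodes. Leaving out any 1 library, week 6 and the treated one excepted, also left CD4 short of the threshold (exact permutation adjusted p = 0.0547 each), with a difference of 1.65 to 2.04 and a smallest exact p of 0.0156 with 7 libraries.

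CD11b, KLRG1, CD103 and the sum of the 6 antibodies did not pass against CD64 single-positive barcodes. The CD11b medians of the 2 classes were 390 and 381 at week 0, 147 and 159 at week 2, and 267.5 and 237 at week 4. The CD11b difference was -0.66 ± 1.48 (SD, n = 8, exact permutation adjusted p = 0.310), and 4 libraries were higher and 4 lower. At 128.5 against 277, week 3 was the lowest untreated library. KLRG1 differed by 0.70 ± 0.77 (SD, n = 8, exact permutation adjusted p = 0.0656) and was higher in 7 of 8. Without the treated library KLRG1 passed at 0.88 (exact permutation adjusted p = 0.0243), and so did CD103 at 0.40 (exact permutation adjusted p = 0.0398).

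Against CD90.2 single-positive barcodes, the double-positive ones carried far more of the myeloid integrins. CD11b was 4.25 ± 1.42 higher on the log2 scale (SD, n = 8, exact permutation adjusted p = 0.0219), in 8 of 8 libraries. Its medians were 390 and 8 at week 0, 147 and 5 at week 2, and 160 and 11 at week 6. CD11c was 2.68 ± 1.14 higher (SD, n = 8, exact permutation adjusted p = 0.0219), also in 8 of 8. CD4 was 2.37 ± 1.72 higher (SD, n = 8, exact permutation adjusted p = 0.0219), although the week 6 medians, 202 and 197, were nearly equal. CD103 differed by 0.92 ± 0.66 and the sum of the 6 antibodies by 1.90 ± 1.24 (SD, n = 8, exact permutation adjusted p = 0.0273 each). CD127 was also higher than on these lymphoid-marked barcodes, by 0.46 ± 0.43 (SD, n = 8, exact permutation adjusted p = 0.0486), with 6 libraries higher and the other two tied. KLRG1 did not pass, at 0.18 ± 1.15 (SD, n = 8, exact permutation adjusted p = 0.732), with 5 libraries higher and 3 lower.

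At equal depth some of these differences from CD90.2 single-positive barcodes were smaller or changed sign. Thinned counts share a fixed total, and CD90.2, which was chosen to be high in both classes, takes up part of it. Before thinning, the week 0 median CD90.2 count was 1995 beside a median total of 3258 on double-positive barcodes. On CD90.2 single-positive barcodes it was 884 beside 1145. The part of CD90.2 in the thinned differences was not tested. Thinned to 200 counts, CD127 was at -0.29, CD103 at -0.09 and CD4 at 0.53, and CD11b and CD11c remained as the only 2 of 7 that passed. Without week 0, 1, 2, 3, 4 or 5 the number that passed was 3 of 7, with differences of similar size: CD103 was at 0.77 to 0.99, the sum at 1.70 to 1.93 and CD127 at 0.36 to 0.51. With 7 libraries the smallest p of the exact test is 0.0156.

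**Figure D5:**
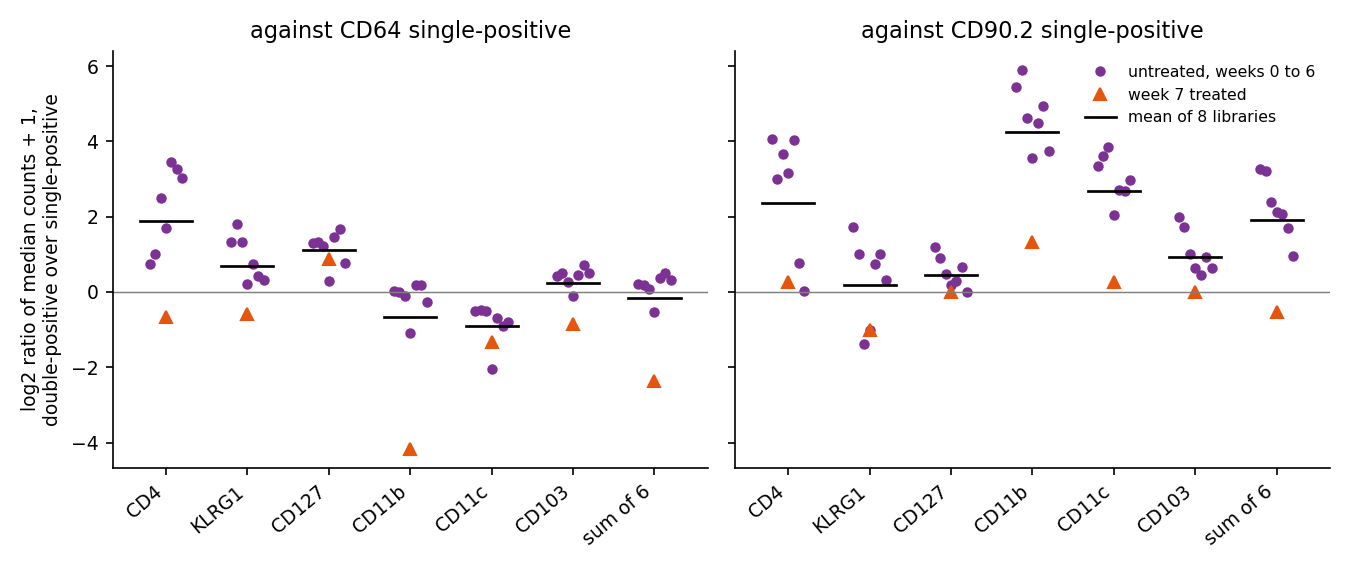
Log2 ratio of median counts plus 1 in double-positive over single-positive barcodes, for the 6 antibodies that set no gate and their sum; each point is 1 library and black lines are means of 8. CD11b lies near 0 against CD64 single-positive barcodes in most untreated libraries and between 3.56 and 5.91 against CD90.2 single-positive ones, and the treated library (triangle) is at -4.16 and 1.32.

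Set against the sum of both single-positive medians, single antibodies behaved unequally. The sum of the 6 ungated antibodies on double-positive barcodes was 1.04, 1.02, 0.877, 0.602, 0.983, 0.996 and 0.760 times that sum at weeks 0 to 6. CD11b was between 0.448 and 1.09 times it and CD127 between 0.593 and 1.24 times it in those weeks. CD11c was below it in 7 of 7, at 0.227 to 0.680 times. Ly-6C, which the rule caps, was below it in 7 of 7, at 0.563 to 0.769 times. CD90.2 was at or above it in 7 of 7, with a median ratio of 1.99, and was chosen to be high. CD4 reached 7.19 times the sum at week 4, when the medians were 129.5 on double-positive, 11 on CD64 single-positive and 7 on CD90.2 single-positive barcodes. CD3+CD4+ barcodes of week 4 had a CD4 median of 152. CD3, though capped by the gate, was 38 on double-positive barcodes at week 4, against 8 and 4 on the single-positive classes and 51 on CD3+CD4+ barcodes. The gate allowed a median of 50.2 CD3 counts on the week 4 double-positive barcodes, because it moves with the barcode's mean. At weeks 5 and 6 the CD3 medians were 44 and 28 on double-positive and 53 and 36 on CD3+CD4+ barcodes. CD3+CD4+ barcodes, a reference added after values had been seen, were 1 of 16735 barcodes at week 0, and 39.2% and 87.6% at weeks 2 and 7 of the untreated libraries. The part of T cells in the CD4 and CD3 counts of late double-positive barcodes was not tested.

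Most double-positive barcodes carried CD11b or CD11c together with CD127 or KLRG1 at weeks 0 and 1, but not at week 2 or later. CD11b was above its threshold on 86.3%, 83.6% and 81.7% of them at weeks 0, 1 and 2, on 51.2% to 83.7% from week 3 to week 6, and on 25.7% in the treated library. CD11b or CD11c together with CD127 or KLRG1 was found on 70.8%, 58.8%, 30.4% and 14.3% at weeks 0 to 3, and on 3.26% to 7.02% at weeks 4 to 6. The same combination was on 43.1% of CD64 single-positive and 19.5% of CD90.2 single-positive barcodes at week 0, and on 2.21% and 29.3% at week 4. CD127 is poorly separated, with an Ashman's D, the distance between both mixture components in units of their spread, of 1.54. These joint phenotypes were added after values had been seen.

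No trend in the proteins of double-positive barcodes over weeks 0 to 6 passed the test. The percentage above the CD4 threshold was 28.1, 19.5, 46.6, 26.2, 51.1, 70.2 and 69.6 at weeks 0 to 6. The KLRG1 percentage was 33.1, 36.8, 27.7, 21.4, 1.09, 1.75 and 3.26, and the CD127 percentage 65.6, 53.2, 16.4, 33.3, 12.0, 18.4 and 10.9. CD4 thus stood higher at the end of the series, and KLRG1 and CD127 stood lower. The same directions held on CD90.2 single-positive barcodes. From week 0 to week 6, CD4 went from 7.21% to 86.6% there, KLRG1 from 42.3% to 10.7% and CD127 from 89.4% to 55.7%. On CD64 single-positive barcodes CD127 went from 42.4% to 5.12%, and CD4 fell, from 35.0% to 11.1%. Spearman's rho with week was 0.79 for CD4, -0.82 for KLRG1 and -0.82 for CD127, and the exact permutation adjusted p was 0.0960 for each (Benjamini-Hochberg over 6 antibodies, n = 7). Pearson's r was 0.86, -0.92 and -0.85, with unadjusted exact permutation p of 0.0187, 0.00714 and 0.0183. For CD11b, CD11c and CD103 it was -0.49, 0.09 and 0.24, with unadjusted exact permutation p of 0.265, 0.842 and 0.657. Without the 2 weeks farthest from the middle, Pearson's r was 0.82, -0.96 and -0.69 for CD4, KLRG1 and CD127. Spearman's rho was then 0.9, -0.9 and -0.5. None of the 6 antibodies passed, and 3 had an unadjusted exact permutation p under 0.05. CD11b (rho -0.61), CD11c (0.11) and CD103 (0.00) made up the rest. Depth changed between the libraries too, with double-positive median totals of 1259 to 3258.

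Within double-positive barcodes, most antibody counts were positively correlated. Over the barcodes of week 0 (n = 1763), Spearman's rho of CD64 with CD11b was 0.74 and with CD11c 0.61, and that of CD90.2 with CD127 was 0.67. CD64 with CD90.2 had a rho of 0.49. The range over the 8 libraries was 0.57 to 0.93 for CD64 with CD11b, 0.47 to 0.67 for CD90.2 with CD127 and 0.26 to 0.58 for CD64 with CD90.2. All antibodies of a barcode share its depth, so these values are a description.

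At week 7 the treated library held more double-positive barcodes than the untreated one. With 2 untreated barcodes, their proteins cannot be compared between these libraries. The share was 54.1 times higher in the treated library (113 against 2 barcodes, 95% interval 14.6 to 452 for counting error). CD64 single-positive barcodes were 1.03% against 0.512%, and CD90.2 single-positive ones 21.3% against 3.35%. This compares 1 pool with 1 pool, so no test was made. The ratio depends on the thresholds: the treated and untreated shares were 13.6% and 2.28% with CD64 and CD90.2 thresholds fitted in each library. They were 0.161% and 0.00840% with the CD64 threshold 0.5 higher, and 4.25% and 0.0756% with it 0.5 lower. Treated double-positive barcodes had medians of 9 for CD11b, 5 for CD11c, 5 for CD4 and 10 for CD127, with 1348 for CD90.2. CD90.2 single-positive barcodes of the same library had medians of 3, 4, 4 and 10 for these antibodies, with 750 for CD90.2. Neither CD11b nor CD11c was above its threshold on 68.1% of the treated double-positive barcodes, against 9.78% to 38.1% at weeks 0 to 6. In CD11b, CD11c, CD4 and CD127 the treated barcodes were thus nearer to CD90.2 single-positive than to CD64 single-positive barcodes, whose CD11b median was 178. So was CD103, with medians of 4 on double-positive, 8 on CD64 single-positive and 4 on CD90.2 single-positive barcodes. KLRG1 was nearer to CD64 single-positive barcodes, with medians of 1, 2 and 3 in the same order. Most of these medians were low counts.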

How the data were processed

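Antibody counts of 9 protein libraries, each of 1 pool of 3 animals, were used. The deposited values are whole-number counts per antibody and barcode, not normalized. Cell Ranger 6.0.2, Seurat 4.1.1 and mm10 are named, with no role for each, per the submitters' processing notes. The selection of barcodes was not given in the sources used here. The other 55 of 64 samples were not used here.

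Barcodes under 50 counts or above the library's 99th percentile were dropped (1475 of 131917). No doublet caller was run. The members and lists were chosen with earlier results of these data known. Positivity of ungated antibodies was set at the crossing point of a Gaussian mixture with 2 components, fitted to the centred log ratios of 2000 barcodes per library. All 11 antibodies are named. Shares carry exact Clopper-Pearson 95% intervals. Tests ran over libraries and were checked on simulated data. Adjusted p-values under 0.05 passed. Alternatives changed the count filters, thresholds, depth, summary and libraries. Members with CD11b, members without CD4 and gates centred on the 5 gated antibodies were added after seeing the data. Mixtures were fitted with scikit-learn 1.9.0 and figures drawn with matplotlib 3.10.9, on scipy 1.17.1, pandas 2.3.3 and numpy 2.4.6 under Python 3.11.15.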

Additional observations from a re-analysis of the deposited data

Results flagged for a closer look

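Among the 8 libraries' log2 ratios of double-positive over CD64 single-positive barcodes, the treated week 7 library lay far from the others for CD11b, at -4.16, and for the sum of the 6 ungated antibodies, at -2.37. Both have the gap to the nearest library divided by the range above Dixon's 95% critical value. Of the 14 measures tested this way these 2 stood out, and chance marks about 1 in 20. The mean CD11b ratio against CD64 single-positive barcodes was -0.15 without that library and the mean sum 0.17.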

How the results depend on the processing

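Each number below replaces the value in the report under 1 changed setting. The number of measures that passed against CD64 single-positive barcodes (3) was 6 with the CD64 threshold 0.5 higher and 5 with it 0.5 lower, 5 with the mean of ln(count + 1), 6 of 6 with shares of the 6 antibodies, 5 with untreated libraries only, and 5 with gates centred on the 5 gated antibodies. Against CD90.2 single-positive barcodes (6) it was 2 with the CD64 threshold lower, 2 with thresholds fitted in each library and 2 after thinning. Leaving out 1 library gave 2 to 5 and 3 to 6, and with 7 libraries the smallest exact p doubles. The number of trends that passed (0) was 1 with the top 5% left out, with the CD90.2 threshold 0.5 higher or lower, after thinning and with the median centred log ratio, 3 with the CD64 threshold higher and 2 with gates centred on 5, and 0 to 0 without 1 library.

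The week 0 share was 11.1% with at least 200 counts, 11.1% with no upper limit, 8.50% without the top 5%, 9.49% and 11.6% with the CD90.2 threshold higher and lower, 6.36% and 17.3% for CD64, 9.14% with thresholds fitted per library, 9.17% thinned, 13.0% centred on 5, 9.09% for CD11b+ members and 7.58% for CD4- members. The week 0 co-occurrence ratio was 0.766 with at least 200 counts, 0.713 without the top 5%, 0.759 with the CD90.2 threshold higher, 0.663 and 0.890 with the CD64 threshold higher and lower, 0.752 fitted, 0.701 thinned and 0.663 centred on 5; the odds ratio was 0.469. The week 0 total over the sum was 1.54 with no upper limit, 1.21 without the top 5%, 1.18 with the CD64 threshold lower, 1.58 for CD11b+ and 1.34 for CD4- members.

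Signs turned as follows, on the log2 scale. Against CD64 single-positive barcodes, CD103 was -0.0057 with the CD90.2 threshold higher, -0.38 with the CD64 threshold lower and -0.47 thinned; with the CD64 threshold higher CD11b was 0.11 and the sum 0.32; the sum was 0.17 without the treated library, -0.25 without week 5 (the range of leaving out 1) and 0.092 centred on 5. Against CD90.2 single-positive barcodes, KLRG1 was -0.0048 with the CD90.2 threshold higher, -0.58 with the CD64 threshold lower, -0.22 fitted, -0.32 thinned, -0.074 with the mean of ln(count + 1), -1.84 as a share and -0.046 to 0.40 without 1 library; CD127 was -0.29 thinned and -1.28 as a share, and CD103 -0.094 and -1.05. The CD11c trend was at a rho of -0.43 fitted, -0.21 thinned, -0.071 with the median centred log ratio and -0.086 (without week 0, 1 or 6) to 0.54 without 1 library. The cause was not tested. The untreated week 7 values rest on 2 barcodes. Shares of the 6 antibodies sum to a fixed total, so a share can be lower where the count is higher. No paired analysis was possible because each group has 1 library, other than the class comparisons, which are already paired within libraries.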
